A study of Mus musculus with 4 samples.

Results

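Mouse embryonic stem (ES) cells labelled as a double knockout of Dnmt3a and Dnmt3b were compared before and after a 6-day neural differentiation, across every gene at 1 FPKM or more in at least 1 of the 2 libraries. FPKM is the number of fragments scaled to transcript length and to the mapped reads of the library, so levels of different genes can be set side by side. The filter kept 14050 of the 23235 genes in the deposited table, and 9185 were under it in both libraries. The starting cells, DKO_ES, had the genotype DNMT3A/B DKO in the strain 129S4/SvJae. They had been grown in KO-DMEM with serum and leukemia inhibitory factor (LIF), first on irradiated feeder cells and later on gelatin, and were taken at day 0. The differentiated cells, DKO_NP, had the same genotype and strain and were collected on day 6, when 4 days as embryoid bodies had been followed by retinoic acid for 2 days. Wild-type cells of J1 background and the same strain, taken at the same stages (WT_ES and WT_NP), served for the scaling and are given beside the knockout values. The knockout of both genes is thus shared by both libraries compared, and the labels do not say how many knockout clones were used. Each of the 4 groups was 1 library made from 5 µg of total RNA after removal of rRNA, so there was no replicate and no test was made.

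Dnmt3a and Dnmt3b are the enzymes that place methyl groups on unmethylated CG dinucleotides, which happens on a large scale as ES cells leave pluripotency. Retinoic acid binds nuclear receptors that sit on response elements near target genes, and in embryoid bodies it turns cells toward neural fates and switches on Hox genes from the early end of each cluster. ES cells themselves are held in their state by a network around Oct4, the product of Pou5f1, together with Sox2 and Nanog.

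The promoters below belong to 4 genes that the values turn on: Rarb and Cyp26a1, classical targets of retinoic acid, Dazl, a germ cell gene known to carry promoter methylation in somatic cells, and Tdgf1, which encodes the Nodal co-receptor Cripto and had the lowest log2 ratio after Rpl26. Each runs 5′ to 3′ from 250 bases before to 50 after the RefSeq start, in build GRCm38.p6. In Rarb and Cyp26a1 the capitals mark a direct repeat with 5 bases between the copies, searched on both strands. A copy could read AGGTCA, or with a changed start GGTTCA, or in the same way AGTTCA, or lastly GGGTCA, in any combination. In Dazl and Tdgf1 the capitals mark every CG dinucleotide.
Rarb, chr14:16575427-16575726, minus strand: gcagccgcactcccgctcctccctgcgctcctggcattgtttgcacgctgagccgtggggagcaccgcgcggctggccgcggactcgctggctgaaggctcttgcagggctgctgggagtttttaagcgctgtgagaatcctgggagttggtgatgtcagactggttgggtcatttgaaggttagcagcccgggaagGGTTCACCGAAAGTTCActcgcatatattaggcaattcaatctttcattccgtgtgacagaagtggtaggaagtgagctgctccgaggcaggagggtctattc
Cyp26a1, chr19:37697558-37697857, plus strand: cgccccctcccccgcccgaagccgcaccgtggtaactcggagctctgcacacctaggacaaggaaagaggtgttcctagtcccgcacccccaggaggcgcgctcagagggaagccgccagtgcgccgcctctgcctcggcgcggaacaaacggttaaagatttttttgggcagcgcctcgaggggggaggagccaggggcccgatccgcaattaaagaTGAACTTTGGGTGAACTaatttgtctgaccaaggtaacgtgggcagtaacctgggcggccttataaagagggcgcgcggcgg
Dazl, chr17:50293571-50293870, minus strand: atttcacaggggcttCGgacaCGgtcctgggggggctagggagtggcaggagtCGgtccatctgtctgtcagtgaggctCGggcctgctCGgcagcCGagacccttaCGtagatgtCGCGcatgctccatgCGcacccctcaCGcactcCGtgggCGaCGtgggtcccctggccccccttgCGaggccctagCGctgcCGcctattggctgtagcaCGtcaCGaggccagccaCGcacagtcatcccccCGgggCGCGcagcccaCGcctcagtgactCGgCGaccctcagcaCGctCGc
Tdgf1, chr9:110946109-110946408, minus strand: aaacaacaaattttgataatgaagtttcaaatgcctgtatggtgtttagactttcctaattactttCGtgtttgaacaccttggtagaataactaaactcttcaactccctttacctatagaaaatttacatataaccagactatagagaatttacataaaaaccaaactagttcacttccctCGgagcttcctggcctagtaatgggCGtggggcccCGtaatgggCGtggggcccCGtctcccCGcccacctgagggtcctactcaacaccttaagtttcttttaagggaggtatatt

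The repeat in Rarb, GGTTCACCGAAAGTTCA, spans bases -53 to -37 from the start, and that in Cyp26a1 lies on the other strand at bases -32 to -16, where it reads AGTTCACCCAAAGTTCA. Among the 32851 promoters of 300 bases in the table, 32 (0.0974%) held a repeat with 5 bases between, and 88 (0.268%) held one with 2 bases between. Of the genes measured here, 7 had the wider repeat. Rarb, Cyp26a1, the embryonic globin gene Hbb-y and the platelet chemokine gene Ppbp were higher in DKO_NP by 2-fold or more, and Blvrb, a biliverdin reductase, was lower by as much. Each of these 4 higher genes was under 1 FPKM in DKO_ES and passed in DKO_NP alone, so it was bound to point that way. Of the 11 with the narrower repeat, 4 were higher and 1 lower. Over all measured genes 11.8% were higher by 2-fold or more and 11.2% lower. A match of letters is a description of the window and not a mapped site. The Dazl promoter holds 28 CG dinucleotides and that of Tdgf1 holds 7, with 7 as the median of all promoters and 1 to 31 as the 10th to 90th percentile.

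Across the 14050 genes, 1656 (11.8%) were higher in DKO_NP by 2-fold or more, 1570 (11.2%) were lower, and 77.0% lay within 2-fold. These ratios follow division of DKO_ES by 1.25 and DKO_NP by 0.908, the median ratios of each library to the 4-library geometric mean, and use log2((scaled FPKM + 1)/(scaled FPKM + 1)). The median log2 ratio was -0.03, with the 5th and 95th percentiles at -1.54 and 1.63. As deposited, without scaling, the median was -0.43 and the counts were 1102 higher and 3067 lower, so the counts in each direction rest on the scaling. At 16-fold, 92 genes were higher and 54 lower. In all, 11956 genes passed in both libraries, 1172 in DKO_ES alone and 922 in DKO_NP alone. A gene that passed in 1 library alone was bound to have a lower deposited value in the other, so a list is also described by its median over all of its members, passed or not, against 0.00 over all genes of the table. Gene values are given as deposited FPKM, and folds are ratios of scaled FPKM with exact 95% intervals from approximate reads, which cover counting error only, since copies made by PCR are not separate molecules. Where 2 values follow each other they are DKO_ES then DKO_NP, or WT_ES then WT_NP. A gene called higher or lower in a count of list members differed by 2-fold or more on the log2 scale with 1 FPKM added. Each such count stands beside the shares over all genes that passed, 11.8% higher and 11.2% lower. Members that did not pass could not be called, though the size given for a list includes them.

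**Figure D1:**
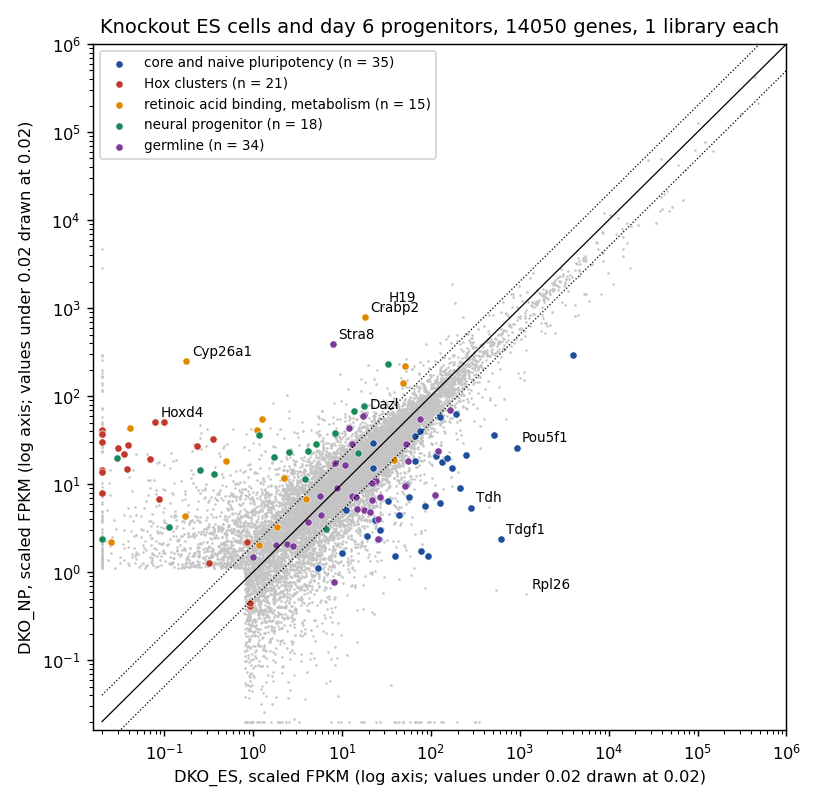
Scaled FPKM of 14050 genes in DKO_ES (x axis) and DKO_NP (y axis), both on log axes, 1 library each, with equality as a solid line and 2-fold as dotted lines. Most Hox genes and genes of retinoic acid metabolism lie above the lines and most pluripotency genes below, while germline genes lie on both sides.

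The depth was read from the steps between low FPKM values, which gave about 15.4 M (1e6) reads for DKO_ES and 25.8 M for DKO_NP. At these depths 3 reads in a gene of 2 kb are worth 0.0973 and 0.0582 FPKM. Small nucleolar and Cajal body RNAs took 60.8% of all FPKM in DKO_ES and 55.7% in DKO_NP. Of the 93 that passed, 49 were lower in DKO_NP by 2-fold or more and 2 higher. Their median log2 ratio was -1.05 against 1.05 in the wild type. Rn45s, the precursor of ribosomal RNA, was listed at 4223 FPKM in DKO_NP and at 0 in the other 3 libraries. AF357425, a gene listed without a descriptive name, had 149 FPKM in DKO_NP with 0 listed in DKO_ES. In WT_ES and WT_NP AF357425 stood at 1898 and 3094 FPKM, above both knockout libraries. Whether RNA recovery or rRNA removal differed between the libraries was not tested. Ribosomal protein genes (81) had a median of -0.45 with 78 within 2-fold, mitochondrial respiratory chain genes (44) a median of -0.38 with all 44 within 2-fold, and housekeeping genes (26) a median of -0.23 with 23 within 2-fold. Rpl26 had the lowest ratio in the table, with 1465 FPKM in DKO_ES and 0.508 FPKM in DKO_NP, and stood at 846 FPKM in WT_ES and 513 FPKM in WT_NP. Rps27 went the other way, at 24.8 and 204 FPKM. Both have near-identical copies elsewhere in the genome, and how the authors' counting split such reads is not given in the sources used here.

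Both targeted genes were lower in the knockout ES cells than in the wild type. Dnmt3a stood at 35.3 FPKM in WT_ES and 17.2 FPKM in WT_NP, against 12.3 FPKM in DKO_ES and 4.14 FPKM in DKO_NP. For Dnmt3b, the wild-type libraries had 140.3 and 9.98 FPKM and the knockout libraries 13.9 and 5.22 FPKM. Which exons the knockout removes is not given in the sources used here, so the remaining reads do not check the deleted stretch. Within the knockout, Dnmt3a was 2.16-fold lower (interval 2.03 to 2.29) in DKO_NP and Dnmt3b 1.94-fold lower (interval 1.76 to 2.13). With 1 FPKM added the log2 ratios were -0.96 and -0.85, inside 2-fold.

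Among the other genes that write, copy or erase DNA methylation, several that are typical of ES cells were lower in DKO_NP. Dnmt3l, the catalytically inactive partner of the Dnmt3 enzymes, stood at 250.2 FPKM in DKO_ES and 12.4 FPKM in DKO_NP, 14.7-fold lower (interval 13.7 to 15.7). Tet1, which oxidizes methylated cytosine, was at 137 and 6.15 FPKM in the same order, 16.1-fold lower (interval 15.5 to 16.8), and Tet2 at 35.3 and 8.95 FPKM, 2.86-fold lower (interval 2.76 to 2.97). Tet3, its relative in differentiated cells, was the single one of the 15 listed genes that was higher, at 3.18 and 9.32 FPKM, 4.04-fold higher (interval 3.74 to 4.35). Dnmt1, the copying enzyme that both libraries keep, stood at 132 and 113 FPKM, and its partner Uhrf1 at 222 and 118 FPKM, both within 2-fold after scaling. In all, 4 of the 15 were lower, and the list median was -0.44. Of the 20 readers of methylated DNA and heterochromatin proteins, 4 were higher and 2 lower, with a median of 0.12 that was -0.34 as deposited. Over all genes 11.8% were higher and 11.2% lower. Zfp57, the zinc finger protein that protects imprinted methylation, was at 139 and 8.89 FPKM, 11.3-fold lower (interval 10.6 to 12.2), and Mbd2, a methyl-CpG binding repressor, at 4.65 and 13.3 FPKM, 3.95-fold higher (interval 3.42 to 4.57).

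The pluripotency network was low in DKO_NP. In bulk RNA, fewer cells of a type and less RNA per cell cannot be told apart. Pou5f1 stood at 1153 FPKM in DKO_ES and 23.4 FPKM in DKO_NP, 35.8-fold lower (interval 33.9 to 37.8). Nanog stood at 308 and 19.6 FPKM, 11.4-fold lower (interval 10.7 to 12.2), and Tdgf1 at 769 and 2.13 FPKM, 262-fold lower (interval 222 to 311). All 18 core genes passed in both libraries, and 15 of them were lower, the median being -2.95. Sox2, which neural progenitors also use, differed less, at 238 and 56.2 FPKM, 3.07-fold lower (interval 2.94 to 3.21), where the wild type had 253 and 12.2 FPKM. The 3 core genes within 2-fold were the zinc finger gene Sall4 and the let-7 pathway genes Trim71 and Lin28b, the last at 28.0 and 26.8 FPKM.

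The genes of the naive state, the ground state of the early epiblast, were lower as well: this held for 16 of 17, and the median was -2.49. Esrrb, an orphan receptor of that state, was at 158 and 5.49 FPKM, 20.8-fold lower (interval 19.4 to 22.3), and Klf4, a reprogramming factor, at 33.8 and 2.70 FPKM, 9.09-fold lower (interval 7.86 to 10.5). Prdm14, which holds back the Dnmt3 genes in ES cells, stood at 12.7 and 1.51 FPKM, 6.08-fold lower (interval 4.88 to 7.59). Tdh, which breaks down threonine in mouse ES cells, was at 352 and 4.86 FPKM, 52.6-fold lower (interval 47.0 to 58.7). Stat3, the target of LIF, was the single naive gene within 2-fold, at 28.1 and 13.7 FPKM. The remaining naive values ran from a log2 ratio of -4.82 for Tcl1, a co-activator of the kinase Akt, to -1.02 for the homeobox gene Gbx2.

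The step between naive cells and germ layers, the formative and primed state, was divided. Otx2, a homeobox gene of epiblast and forebrain, stood at 34.4 and 1.24 FPKM, 20.1-fold lower (interval 16.9 to 24.1), and Foxd3 at 11.0 and 0.0968 FPKM, 82.2-fold lower (interval 36.1 to 218). Sall2 and Sox4, transcription factors kept in neural cells, were higher. Sall2 was at 7.75 and 24.3 FPKM, 4.33-fold higher (interval 3.98 to 4.72). Sox4 was at 13.6 and 47.6 FPKM, 4.84-fold higher (interval 4.52 to 5.18). Of 13 such genes 6 were lower and these 2 higher. Fgf5, the usual marker of the primed epiblast, was at 1.5 and 1.01 FPKM and was low in both libraries.

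Nodal signalling sustains the primed epiblast and FGF signalling drives exit from the naive state, and several genes of both were low with the pluripotency genes. Nodal stood at 53 and 4.72 FPKM, 8.14-fold lower (interval 7.12 to 9.31), and both of its secreted inhibitors were lower too. Lefty1 was at 115 and 5.10 FPKM, 16.4-fold lower (interval 14.3 to 18.8). Lefty2 was at 96.4 and 2.51 FPKM, 27.8-fold lower (interval 23.8 to 32.7). Fgf4, the growth factor that ES cells secrete, was at 116 and 1.37 FPKM, 61.1-fold lower (interval 50.8 to 74.4), and Fgf17 at 44.5 and 0.0472 FPKM, where the second value is about 2 reads. Of the FGF feedback genes, Spry4 and Etv5 were both lower in DKO_NP. Spry4 was at 54.7 and 0.766 FPKM, 51.8-fold lower (interval 42.2 to 64.1). Etv5 was at 216 and 8.63 FPKM, 18.2-fold lower (interval 17.0 to 19.5). Dusp6, a phosphatase that is also part of the feedback, lay within 2-fold, at 32.1 and 21.5 FPKM. Of the receptors, Fgfr1 and Fgfr4 lay within 2-fold and the other two were higher. Fgfr2 stood at 3.61 and 35.8 FPKM, 13.7-fold higher (interval 12.6 to 14.9), and Fgfr3 at 2.59 and 16.4 FPKM, 8.75-fold higher (interval 7.76 to 9.93). Counted together, 9 of 23 FGF genes were lower and 3 higher, the third being Fgfbp3, a carrier of FGF, at 0.979 and 9.58 FPKM.

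Other genes with very low ratios included Trh, the precursor of thyrotropin-releasing hormone, at 566 and 4.94 FPKM, 83.1-fold lower (interval 71.6 to 97.0), where wild-type cells had 184 and 3.64 FPKM. Pla2g1b, a secreted phospholipase, was at 80.3 and 1.01 FPKM. Triml1 stood at 72.0 and 1.38 FPKM. Each of these was low in both differentiated libraries.

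Genes that bind, move and break down retinoic acid were mostly higher in DKO_NP. Cyp26a1, the enzyme that clears retinoic acid, stood at 0.222 FPKM in DKO_ES and 226 FPKM in DKO_NP, 1401-fold higher (interval 660.4 to 3386). In the wild type it stood at 0.443 and 102 FPKM. Cyp26b1, its relative, was at 0.0520 and 39.7 FPKM, 1053-fold higher (interval 441 to 4147), against 0.283 and 77.0 FPKM in WT_ES and WT_NP, so its wild-type value was the higher of the differentiated pair. Crabp2, which carries retinoic acid to its receptors, stood at 22.7 and 718 FPKM, 43.7-fold higher (interval 39.9 to 48.0), and at 10.7 and 253 FPKM in the wild type. Crabp1, the cytosolic binding protein, was at 64.6 and 201 FPKM, 4.29-fold higher (interval 3.97 to 4.63). Stra6, the membrane receptor for retinol-binding protein, stood at 0.616 and 16.4 FPKM, 36.8-fold higher (interval 28.4 to 49.3). Dhrs3, which turns retinaldehyde back into retinol, was at 1.58 and 50.4 FPKM, 43.9-fold higher (interval 35.0 to 56.7). The enzyme that makes retinoic acid in the embryo, Aldh1a2, differed little, at 1.45 and 1.83 FPKM, where the wild type had 1.33 and 6.35 FPKM.

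Of the 18 listed genes for retinoid binding and metabolism, 15 passed, 5 of them in DKO_NP alone. Of these 11 were higher and 0 lower, while the median over all 18 was 1.82. The wild type had 13 higher, where 16.2% of all genes were, and a median of 2.18 over the same 18.

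The receptors differed in both directions. Rarb stood at 0.318 and 30.6 FPKM, 133-fold higher (interval 89.8 to 202). Rarg, the main retinoic acid receptor of these ES cells by level, was at 60.3 and 7.28 FPKM, 6.01-fold lower (interval 5.56 to 6.49). Rara stood at 26.5 and 23.1 FPKM and Rxrb, a partner receptor, at 31.6 and 25.9 FPKM, both within 2-fold. Rxra, the other partner, was at 9.78 and 18.8 FPKM, 2.64-fold higher (interval 2.44 to 2.86), and Nrip1, a co-repressor that retinoic acid induces, at 3.55 and 19.9 FPKM, 7.72-fold higher (interval 7.11 to 8.39). The order of levels was thus Rarg, Rara and Rarb in DKO_ES and Rarb, Rara and Rarg in DKO_NP. Over all 12 receptors and cofactors the median was 0.03, and that over the 11 that passed changed sign from 0.17 to -0.27 as deposited.

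Hox genes of the early part of each cluster were near 0 in DKO_ES and present in DKO_NP. In the Hoxa cluster, Hoxa4 stood at 0.0442 FPKM in DKO_ES and 20.1 FPKM in DKO_NP. Hoxa5 was listed at 0 in DKO_ES, against 37.2 FPKM in DKO_NP. The next genes dropped off, with Hoxa6 at 0.990 FPKM and Hoxa7 at 0.361 FPKM in DKO_NP, and the listed genes from Hoxa9 to Hoxa13 at no more than 0.0951 FPKM. In the Hoxb cluster, Hoxb1 stood at 7.23 FPKM in DKO_NP, Hoxb2 at 46.2 FPKM, Hoxb6 at 33.7 FPKM and Hoxb9 at 1.14 FPKM, and in DKO_ES these 4 were at or under 0.398 FPKM. The level thus dropped after Hoxa5 and Hoxb8.

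In the other clusters the genes above 5 FPKM were Hoxc4 and Hoxc5, at 24.6 and 33.6 FPKM in DKO_NP, and Hoxd3 and Hoxd4, at 17.6 and 45.9 FPKM. In DKO_ES the Hox genes at 1 FPKM or more were Hoxd1, at 1.06 and 2.01 FPKM, and the last genes of both clusters, Hoxc13 at 1.15 and 0.377 FPKM and Hoxd13 at 1.15 and 0.399 FPKM. The 17 Hox genes counted as higher each passed in DKO_NP alone, so that count was bound to point that way. Of 39 listed Hox genes 18 did not pass. The median over all members was 1.06 for Hoxa, 4.32 for Hoxb, 0.42 for Hoxc and 0.01 for Hoxd.

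**Figure D2:**
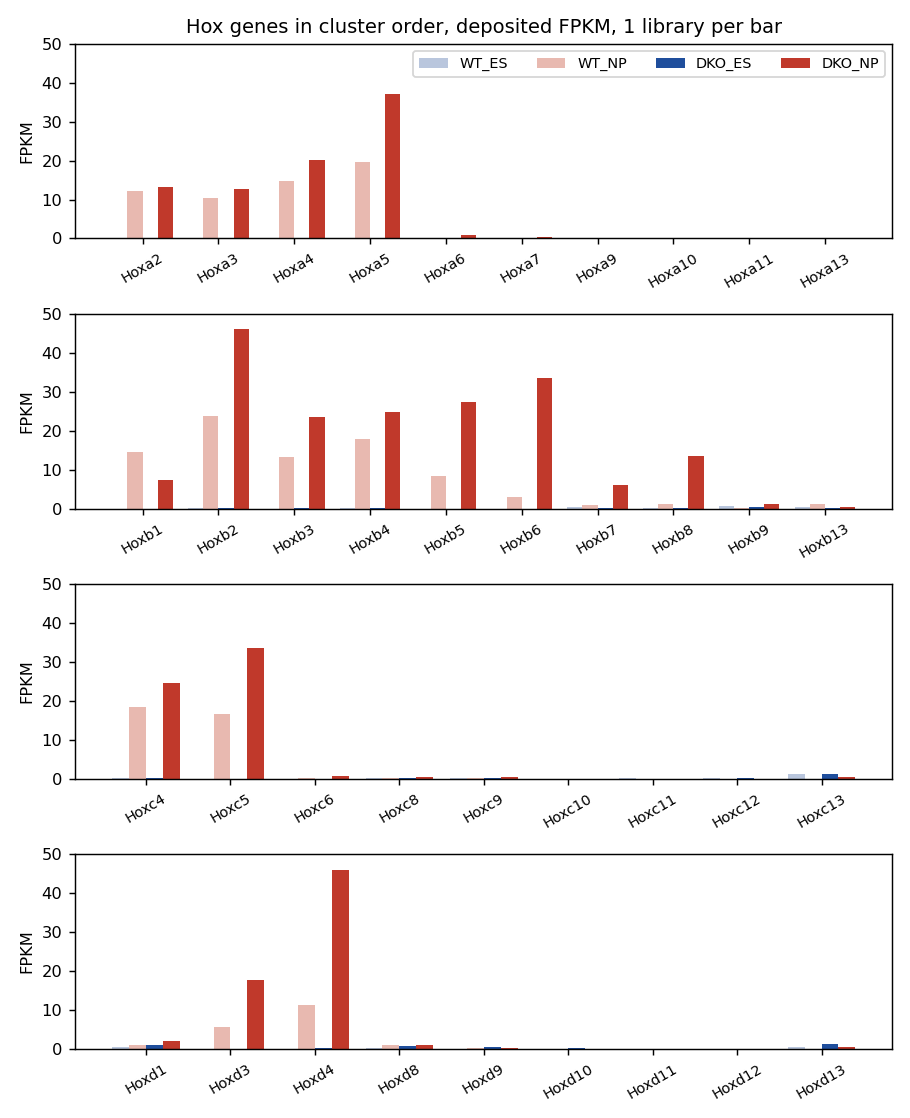
Deposited FPKM of the Hox genes shown, in cluster order, 1 panel per cluster and 1 bar per library. In DKO_NP the bars are low after Hoxa5, Hoxb8, Hoxc5 and Hoxd4, and those of Hoxb5 to Hoxb8 stand above the WT_NP bars.

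Hoxb5 to Hoxb9 had lower levels in the wild-type progenitors. Hoxb6 stood at 3.05 FPKM in WT_NP and 33.7 FPKM in DKO_NP, and Hoxb8 at 1.31 and 13.5 FPKM. Hoxb13, the last of the cluster, was at 1.20 FPKM in WT_NP and 0.505 FPKM in DKO_NP. Hoxb1 stood at 14.6 FPKM in WT_NP and 7.23 FPKM in DKO_NP, and Hoxd4 at 11.1 and 45.9 FPKM. These are deposited levels, which scaling raises by more in WT_NP (divided by 0.671) than in DKO_NP, and the difference between the genotypes was not tested.

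The TALE proteins, with which Hox proteins bind DNA, were high alongside. Meis1 stood at 0.379 and 38.0 FPKM, 138-fold higher (interval 107 to 179). Meis2 was at 0.256 and 21.7 FPKM, 117-fold higher (interval 87.2 to 157). Pbx2, already present in DKO_ES, stood at 20.4 and 61.2 FPKM, 4.13-fold higher (interval 3.88 to 4.40). Tgif1, a TALE repressor, was the single one of 11 that was lower, at 127 and 39.4 FPKM, 2.34-fold lower (interval 2.26 to 2.41), with 6 higher and a median of 1.98. Tshz1, a zinc finger gene of the trunk, was at 0.313 and 42.9 FPKM, 189-fold higher (interval 132 to 287).

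Markers of neural progenitors were present in DKO_NP, as its label says. Nes, the intermediate filament nestin, stood at 17.2 FPKM in DKO_ES and 60.8 FPKM in DKO_NP, 4.86-fold higher (interval 4.62 to 5.12), against 16.9 and 19.3 FPKM in WT_ES and WT_NP. Sox1, the earliest neural plate factor, stood at 2.14 and 18.3 FPKM, 11.8-fold higher (interval 10.1 to 14.0), against 3.15 and 4.33 FPKM. Sox3 was at 3.17 and 20.7 FPKM, 9.01-fold higher (interval 7.35 to 11.2), against 4.27 and 3.48 FPKM. Pax6 stood at 10.5 and 34.9 FPKM, 4.58-fold higher (interval 4.36 to 4.81), and at 3.96 and 13.1 FPKM in the wild type. For Nes, Sox1, Sox3 and Pax6, DKO_NP was the highest of the 4 libraries. Fabp7, a fatty acid binding protein of radial glia, was at 0.314 and 13.2 FPKM, 57.8-fold higher (interval 26.6 to 159.8), and Vim, the filament protein vimentin, at 41.1 and 211 FPKM, 7.10-fold higher (interval 6.83 to 7.37). Zic1, a dorsal neural zinc finger gene, stood at 0.0372 and 18.0 FPKM, 666-fold higher (interval 248 to 3517). Of 19 markers 18 passed, 5 of them in DKO_NP alone, and 16 were higher with 0 lower. The median over all 19 was 2.20, and 1.46 in the wild type.

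Several genes of the caudal and dorsal neural tube were higher in DKO_NP. Irx3, a homeobox gene of the caudal neural plate, was at 0.272 and 26.2 FPKM, 133-fold higher (interval 73.2 to 249), and Pax3, a dorsal factor, at 0.0553 and 13.1 FPKM, 326-fold higher (interval 147 to 1062). Of the dorsal genes, Msx1 was at 0.102 and 7.80 FPKM and Pax7 at 0.0144 and 4.39 FPKM. Wnt1, of the dorsal midline and midbrain, was listed at 0 in DKO_ES and stood at 6.80 FPKM in DKO_NP. Of the ventral genes, Shh stood at 0.128 FPKM, Nkx2-2 at 0.0379 FPKM and Olig2 at 0.0627 FPKM in DKO_NP, and Nkx6-1 at 0.330 FPKM. Foxa2, a factor of the floor plate and also of endoderm, stood higher, at 0.0608 and 2.42 FPKM, 54.9-fold higher (interval 16.6 to 509), where the first value is about 2 reads. Of the forebrain genes, Six3 stood at 0.0302 FPKM and Rax at 0.0717 FPKM in DKO_NP. Among 18 forebrain and midbrain genes 13 did not pass, with a median over all of -0.03. Of those that passed, Lhx2, Emx2 and Wnt1 were higher, each passing in DKO_NP alone, and Hesx1 and En2 lay within 2-fold. Lhx2 was at 0.618 and 2.52 FPKM and Emx2 at 0.0244 and 1.15 FPKM. Of 13 hindbrain and spinal cord genes 5 passed, with 3 higher and 1 lower and a median over all of 0.20. Among 23 dorsoventral genes 15 passed and 9 were higher, with a median over all of 0.10.

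Some proneural genes were higher in DKO_NP, and genes of neurons differed in both directions. Neurog1, a proneural factor of sensory and dorsal progenitors, was at 0.160 and 9.37 FPKM, 80.7-fold higher (interval 32.5 to 309.7). Nhlh2, a factor of newborn neurons, stood at 0.0743 and 4.79 FPKM, 88.9-fold higher (interval 42.0 to 251), and Dcx, a microtubule protein of migrating neurons, at 0.0400 and 1.35 FPKM, 46.6-fold higher (interval 22.8 to 106). Of 23 proneural and homeobox genes 13 passed, 10 in DKO_NP alone, and 7 were higher, 5 within 2-fold and 1 lower, with a median over all of 0.50. Pou4f1, of sensory neurons, was among those within 2-fold, at 2.81 and 3.25 FPKM, and the lower one was Neurod1. Several neuronal genes were already present in DKO_ES. Tubb3, neuronal tubulin, was at 71.9 and 29.7 FPKM. Stmn2, a tubulin-binding protein, was at 108 and 2.76 FPKM, 28.4-fold lower (interval 25.7 to 31.5). Neurod1, a differentiation factor, was at 30.4 and 2.00 FPKM, 11.0-fold lower (interval 9.22 to 13.2). Rbfox3, of mature neurons, was at 0.548 and 0.175 FPKM. In the wild type Tubb3 stood at 59.0 and 5.05 FPKM. Of 23 neuron genes 7 were higher and 3 lower, with a median over all of 0.34, while over the 20 that passed it was -0.02, opposite in sign. The wild type had 0 higher and 8 lower, with -0.24 over all 23. Of 11 glial genes 7 did not pass, and Gfap stood at 0.0279 and Aqp4 at 0.0502 FPKM in DKO_NP.

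Notch signalling keeps neural progenitors from differentiating, and its genes differed in both directions. Hes5, the main Notch target of the neural tube, stood at 1.48 and 32.6 FPKM, 30.4-fold higher (interval 21.4 to 45.1), against 0.833 and 2.74 FPKM in WT_ES and WT_NP. Hes1, another target, lay within 2-fold, at 28.4 and 33.6 FPKM. Lfng, a modifier of Notch receptors, was at 5.06 and 24.7 FPKM, 6.74-fold higher (interval 5.81 to 7.87), and Nrarp, a feedback inhibitor, at 3.01 and 12.6 FPKM, 5.78-fold higher (interval 4.76 to 7.05). Rbpj, through which Notch acts on DNA, stood at 118 and 30.8 FPKM, 2.78-fold lower (interval 2.71 to 2.84). The receptor Notch1 was at 18.9 and 20.4 FPKM and the ligand Dll1 at 12.7 and 10.7 FPKM, both within 2-fold. Over all 21 genes 6 were higher and 2 lower, and the median of the 18 that passed was 0.29, or -0.14 as deposited.

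Wnt receptors and dorsal Wnt ligands were high. Fzd10, Fzd3 and Fzd8, receptors for Wnt, were all higher in DKO_NP. Fzd10 was at 5.19 and 25.8 FPKM, 6.87-fold higher (interval 6.04 to 7.84). Fzd3 was at 7.02 and 33.2 FPKM, 6.51-fold higher (interval 6.16 to 6.89). Fzd8 was at 1.64 and 10.5 FPKM, 8.82-fold higher (interval 7.46 to 10.5). Wnt3a, a ligand of the dorsal neural tube and tail bud, stood at 0.0689 and 3.90 FPKM, and Axin2, the general readout gene of the pathway, at 4.82 and 12.6 FPKM, 3.61-fold higher (interval 3.24 to 4.03). Fzd5, the receptor typical of ES cells, was at 29.8 and 3.0 FPKM, 7.21-fold lower (interval 6.58 to 7.92). Of 39 Wnt genes 31 passed, 8 in DKO_NP alone, and 16 were higher and 2 lower, with a median over all of 0.57.

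Several genes that receive the Hedgehog signal were higher. The co-receptors Gas1, Boc and Cdon were all higher in DKO_NP. Gas1 was at 2.08 and 76.6 FPKM, 50.8-fold higher (interval 41.4 to 62.8). Boc was at 2.23 and 24.1 FPKM, 14.9-fold higher (interval 12.7 to 17.6). Cdon was at 6.71 and 33.7 FPKM, 6.93-fold higher (interval 6.43 to 7.46). Gli3, the repressor form in the absence of signal, stood at 5.13 and 21.8 FPKM, 5.85-fold higher (interval 5.42 to 6.32). The target genes Ptch1 and Gli1 lay within 2-fold after scaling, Ptch1 at 38.3 and 24.2 FPKM and Gli1 at 18.1 and 7.72 FPKM. Of 16 Hedgehog genes 7 were higher and 1 lower, with a median over all of 0.68.

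In the BMP pathway, the target genes Id3 and Msx2 were both higher in DKO_NP. Id3 was at 22.6 and 131 FPKM, 8.03-fold higher (interval 7.39 to 8.73). Msx2 was at 0.567 and 6.04 FPKM, 14.7-fold higher (interval 9.98 to 21.9), while Id1, another target, stood at 62.6 and 54.8 FPKM. The receptor Bmpr1a was at 29.1 and 46.0 FPKM, 2.18-fold higher (interval 2.09 to 2.28), and the ligand Bmp4 at 5.95 and 2.33 FPKM. Of 31 BMP and Nodal genes 27 passed, with 8 higher and 7 lower, Nodal and both Lefty genes among the latter, and a median over all of 0.27.

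**Figure D3:**
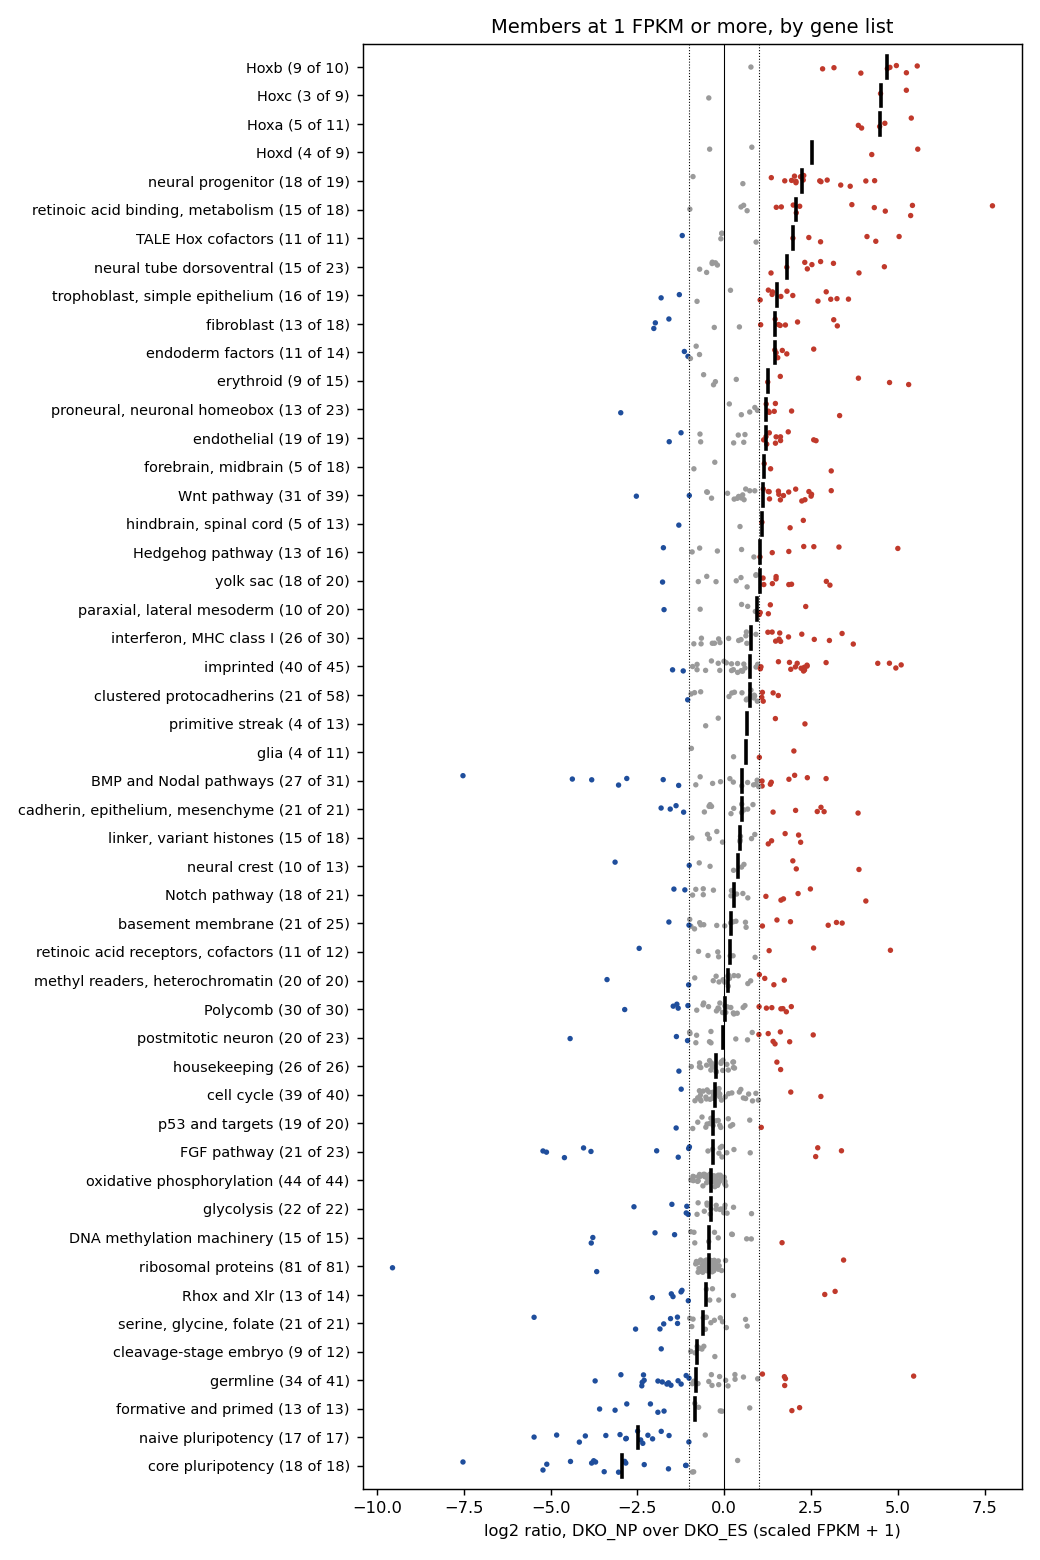
Log2 ratio of DKO_NP over DKO_ES for each member at 1 FPKM or more of the 50 gene lists, 1 point per gene, red at 2-fold higher or more, blue at 2-fold lower or more, with the list median as a black bar. Core and naive pluripotency have medians of -2.95 and -2.49, and most Hox, retinoic acid and neural progenitor genes lie to the right of 1.

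Genes of other germ layers were present in DKO_NP, for the most part at levels below those of WT_NP. Over the 86 distinct genes of the endothelial, erythroid, mesoderm, endoderm and yolk sac lists, 71 had a lower deposited level in DKO_NP than in WT_NP and 15 a higher one, or 79 and 7 after scaling. The same count over all genes was not made, so these counts have no background share beside them. Kdr, a growth factor receptor of endothelium, was at 1.26 and 5.65 FPKM, against 13.5 FPKM in WT_NP. Cdh5, the cadherin of endothelial junctions, was at 0.108 and 5.27 FPKM, against 7.51 FPKM in WT_NP. Embryonic globins were near or at 0 in DKO_ES and stood at 35.3 FPKM for Hbb-y, 23.8 FPKM for Hba-x and 13.9 FPKM for Hbb-bh1 in DKO_NP. In WT_NP these were 193, 242 and 328 FPKM, above DKO_NP in each case. The endoderm factor Gata6 was at 0.430 and 2.45 FPKM, against 23.3 FPKM in WT_NP, and Gata4 at 0.779 against 30.4 FPKM. Apoa1, an apolipoprotein of yolk sac and liver, stood at 0.299 and 7.75 FPKM, against 35.4 FPKM in WT_NP. Pdgfra, of mesoderm and primitive endoderm, was at 0.304 and 1.37 FPKM, against 13.5 FPKM, and Foxf1a, of lateral mesoderm, at 0.530 against 28.0 FPKM. Other genes had the higher deposited level in DKO_NP. Sox17, of endoderm and endothelium, stood at 5.82 FPKM against 4.44 FPKM in WT_NP, and Pecam1, an adhesion protein of endothelium, at 8.53 against 5.08 FPKM. Afp, a yolk sac and liver protein, had 6.79 against 6.18 FPKM, and Hand1, of lateral mesoderm, 1.59 against 1.51 FPKM. After scaling, Sox17, Afp and Hand1 were lower in DKO_NP than in WT_NP, and Pecam1 remained higher. Pecam1 had stood at 29.5 FPKM in DKO_ES, above its value in DKO_NP. Of the early mesoderm genes, T at 0.0380 FPKM and Mixl1 at 0.101 FPKM were near the floor in DKO_NP, and 4 of 13 primitive streak genes passed. Among those that passed, Wnt3a, at 0.0689 and 3.90 FPKM, and Lhx1, at 0.138 and 1.90 FPKM, were higher. Both passed in DKO_NP alone, and the remaining ones lay within 2-fold.

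By list, all 19 endothelial genes passed, 8 of them in DKO_NP alone, and 11 were higher and 2 lower. Their median was 1.21 in the knockout and 2.49 in the wild type. The 20 paraxial and lateral mesoderm genes had medians over all of 0.53 and 2.09 in the same order, the 15 erythroid genes 0.23 and 1.75, the 14 endoderm factors 0.57 and 2.05, and the 20 yolk sac genes 0.92 and 1.89. In each of these 5 lists the wild-type median was the larger. Of 13 neural crest genes 10 passed, 3 were higher and 2 lower, and Sox10, the defining factor, stood at 0.502 FPKM in DKO_NP.

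Some epithelial and matrix genes also differed, with 6 of 21 cadherin and epithelium genes higher and 4 lower. The shares over all genes were 11.8% higher and 11.2% lower. Cdh1 and Cdh2, the cadherins of epithelium and of neural tube, differed in opposite directions. Cdh1 was at 147 and 35.7 FPKM, 2.98-fold lower (interval 2.88 to 3.09). Cdh2 was at 2.50 and 38.6 FPKM, 21.3-fold higher (interval 19 to 23.9). Epcam stood at 130.3 and 26.2 FPKM, 3.61-fold lower (interval 3.40 to 3.83). Zeb2, a repressor of Cdh1, was at 0.361 and 7.70 FPKM, 29.4-fold higher (interval 24.4 to 35.9). Keratins of simple epithelium were high in DKO_NP, with Krt8 at 14.8 and 109.8 FPKM, Krt7 at 3.98 and 31.0 FPKM and Krt19 at 6.70 and 43.4 FPKM, and so was Plac1, a placental gene, at 0.473 and 14.1 FPKM, 41.0-fold higher (interval 22.5 to 87.4). The trophoblast factors Cdx2, Eomes and Elf5 stood at 0.631, 0.391 and 1.18 FPKM in DKO_NP. Of these, Elf5 was 10.7-fold higher than in DKO_ES (interval 6.13 to 19.7). Other factors of the list had higher levels in DKO_NP. Gata3 was at 0.194 and 2.35 FPKM and Dlx3 at 0.658 and 4.55 FPKM. Gata2 stood at 6.09 FPKM in DKO_NP, 5.60-fold higher (interval 4.63 to 6.80). Tfap2c lay within 2-fold, at 16.8 and 13.9 FPKM, against 2.27 FPKM in WT_NP. Among 19 trophoblast and simple epithelium genes 12 were higher and 2 lower, with a median over all of 1.38. The higher ones included Elf5, Gata3, Hand1, Plac1 and Dlx3, which passed in DKO_NP alone and were bound to point that way. Col4a1 and Col4a2, the type IV collagen chains of basement membrane, were both higher. Col4a1 was at 6.77 and 53.9 FPKM, 11.0-fold higher (interval 10.2 to 11.8). Col4a2 was at 2.81 and 30.2 FPKM, 14.8-fold higher (interval 13.1 to 16.7). Fn1, the matrix protein fibronectin, was at 169.7 and 40.3 FPKM, 3.06-fold lower (interval 2.99 to 3.12). Over the 25 basement membrane genes 6 were higher and 2 lower, and the median of the 21 that passed was 0.19, or -0.20 as deposited.

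Since feeder cells had been used in earlier passages, fibroblast genes were also read. Col1a1 was at 1.07 and 4.24 FPKM, Col1a2 at 0.556 and 11.7 FPKM and Col3a1 at 0.0327 and 2.26 FPKM, all fibrillar collagens. Thy1, a surface protein, was at 4.81 and 0.206 FPKM. Postn, Lum and Dcn were under 1 FPKM in both libraries. Of 18 fibroblast genes 13 passed, 8 were higher and 3 lower. The summed FPKM of the list was 242 in DKO_ES, of which Fn1 was 169.7, and 145 in DKO_NP, of which Fn1 was 40.3. Without Fn1 the direction turned, from 72.3 FPKM in DKO_ES to 105 FPKM in DKO_NP over the other 17 genes. The part of feeder or mesodermal cells in the other results was not tested.

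Germline genes, many of which depend on promoter methylation for silence in somatic cells, were divided. Stra8, the retinoic acid target that opens meiosis, stood at 9.81 FPKM in DKO_ES and 352 FPKM in DKO_NP, 49.5-fold higher (interval 43.9 to 55.9), against 6.10 and 28.8 FPKM in WT_ES and WT_NP. Dazl, an RNA-binding protein of germ cells whose promoter is printed above, was at 22.0 and 55.7 FPKM, 3.49-fold higher (interval 3.28 to 3.71), and at 9.22 and 0.733 FPKM in the wild type, 6.40-fold lower. Sohlh2, a helix-loop-helix factor of early germ cells, stood at 21.5 and 54.0 FPKM, 3.47-fold higher (interval 3.21 to 3.75), and at 16.5 and 1.16 FPKM in the wild type, 7.23-fold lower. Dmrt1, a factor of the testis, was at 16.1 and 26.1 FPKM, 2.24-fold higher (interval 2.04 to 2.45), and at 20.7 and 3.76 FPKM in the wild type. Rec8, a meiotic cohesin, stood at 15.0 and 39.3 FPKM, 3.60-fold higher (interval 3.32 to 3.92), and at 14.9 and 18.0 FPKM. For Stra8, Dazl, Sohlh2, Dmrt1 and Rec8, DKO_NP was the highest of the 4 libraries. No other germline gene was counted as higher.

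Several other germline genes were lower in DKO_NP while remaining above the wild-type progenitors. Tdrd12 and Piwil2, of the piRNA pathway, were both lower in DKO_NP. Tdrd12 was at 139.5 and 6.87 FPKM, 14.7-fold lower (interval 13.7 to 15.9). Piwil2 was at 31.4 and 3.67 FPKM, 6.21-fold lower (interval 5.64 to 6.85). In WT_NP, Tdrd12 had 1.19 FPKM and Piwil2 0.246 FPKM. Hormad1, a protein of the meiotic chromosome axis, was at 63.9 and 8.54 FPKM, with 0.259 FPKM in WT_NP. Sycp3, of the same axis, was at 27.4 and 5.95 FPKM, with 1.95 FPKM in WT_NP. Mael, also of the piRNA pathway, stood at 30.2 and 9.78 FPKM, with 0.631 FPKM in WT_NP. Ddx4, a germ cell helicase, was at 16.3 and 6.66 FPKM, with 0.819 FPKM in WT_NP, and at 1.78-fold lower after scaling it was not counted as lower. Of 41 germline genes 34 passed, 15 were lower and 5 higher, with a median over all of -0.44. The wild type had 24 lower and 2 higher, with -1.36, against 11.3% lower and 16.2% higher over all genes there. The summed FPKM of the list was 1238 in DKO_ES and 846 in DKO_NP, where WT_ES and WT_NP had 783 and 126.

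**Figure D4:**
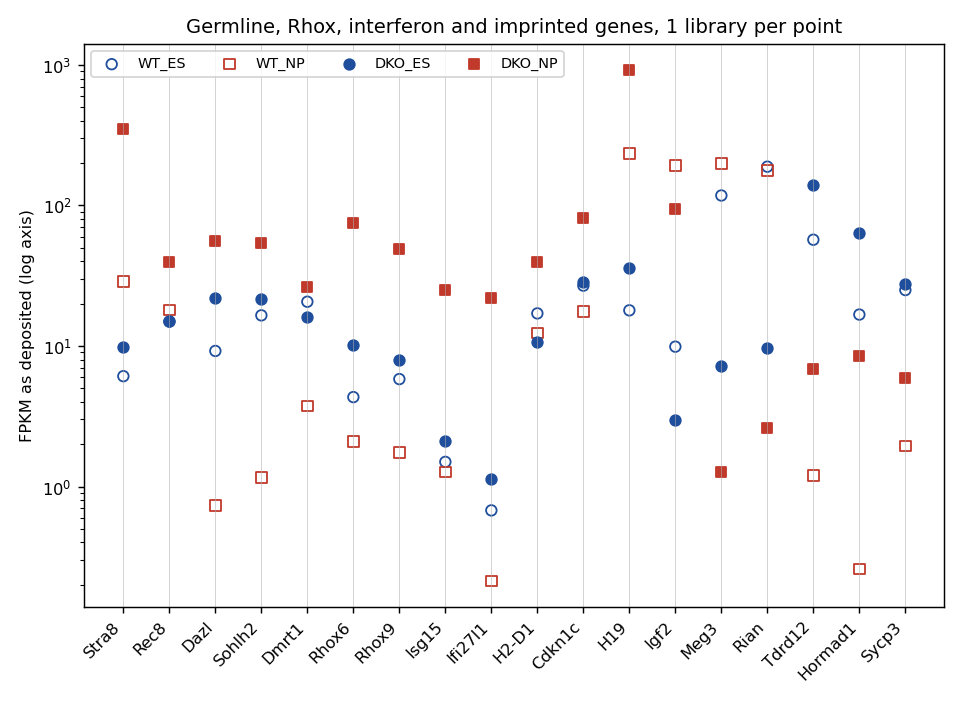
Deposited FPKM (log axis) of 18 germline, Rhox, interferon and imprinted genes in the 4 libraries, circles for ES cells and squares for progenitors, open for wild type and filled for the knockout. The filled squares of Stra8, Dazl, Sohlh2, Rhox6, Rhox9 and Isg15 lie above the other 3 points, and those of Meg3 and Rian below.

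X-linked reproductive homeobox genes split within their cluster. Rhox6 and Rhox9 were both higher in DKO_NP. Rhox6 was at 10.2 and 75.1 FPKM, 10.2-fold higher (interval 8.68 to 12.1). Rhox9 was at 7.93 and 48.8 FPKM, 8.48-fold higher (interval 7.54 to 9.58). In the wild type Rhox6 had 4.33 and 2.08 FPKM and Rhox9 5.81 and 1.75 FPKM, each below DKO_NP. Rhox1 was at 14.8 and 4.03 FPKM, 2.67-fold lower (interval 2.07 to 3.44), and Usp26, an X-linked deubiquitinase of the testis, at 85.6 and 14.1 FPKM, 4.40-fold lower (interval 4.15 to 4.66). Of 14 Rhox, Xlr and neighbouring genes 2 were higher and 6 lower, with a median over all of -0.46. The Rhox, Xlr and Zscan4 genes have near-identical copies, so single values are uncertain. Genes of the cleavage-stage embryo had lower values in DKO_NP, with Zscan4c at 14.1 and 4.81 FPKM, 2.13-fold lower (interval 1.83 to 2.47), and Zfp352 at 5.12 and 1.80 FPKM. Of 12 such genes 9 passed, with log2 ratios from -1.81 to -0.27 and a median of -0.77, or -0.67 over all 12 and -0.80 in the wild type. On that scale, with 1 FPKM added, Dppa3 was the 1 gene counted as lower, at 83.4 and 16.6 FPKM.

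Many imprinted genes, which are expressed from 1 parental copy, were higher in DKO_NP. H19, a long noncoding RNA, stood at 36.0 and 927 FPKM, 35.5-fold higher (interval 33.6 to 37.4), and its neighbour Igf2, a growth factor, at 2.99 and 94.0 FPKM, 43.3-fold higher (interval 38.3 to 49.1). The 2 genes were unequal against the wild type: H19 stood at 233 FPKM and Igf2 at 192 FPKM in WT_NP, so that DKO_NP had the higher H19 and the lower Igf2. Dlk1, a membrane protein of progenitors, was at 0.373 and 24.4 FPKM, 90.2-fold higher (interval 63.3 to 129.5). Meg3 and Rian, noncoding RNAs of the same imprinted domain, differed in the opposite direction. Meg3 was at 7.16 and 1.27 FPKM, 4.08-fold lower (interval 3.73 to 4.48). Rian was at 9.70 and 2.60 FPKM, 2.70-fold lower (interval 2.53 to 2.90). In the wild type Meg3 stood at 118 and 199 FPKM and Rian at 189 and 177 FPKM, above both knockout libraries. Cdkn1c, a growth inhibitor, stood at 28.7 and 81.2 FPKM, 3.90-fold higher (interval 3.63 to 4.20), and Plagl1, a zinc finger factor, at 0.740 and 38.3 FPKM, 71.3-fold higher (interval 58.0 to 89.1). Phlda2, next to Cdkn1c, was at 133 and 74.4 FPKM, and at 143 and 4.76 FPKM in the wild type. Of 45 imprinted genes 40 passed, 7 in DKO_NP alone, and 18 were higher and 2 lower, with a median over all of 0.53, against 1.17 in the wild type.

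A part of the interferon-induced genes and MHC class I genes was higher in DKO_NP. Isg15, a ubiquitin-like protein, stood at 2.12 and 24.9 FPKM, 16.2-fold higher (interval 10.7 to 24.9), against 1.5 and 1.27 FPKM in WT_ES and WT_NP. Ifi27l1 was at 1.14 and 21.9 FPKM, 26.6-fold higher (interval 17.8 to 40.5), against 0.676 and 0.212 FPKM. Usp18, which removes Isg15 from proteins, had 6.52 FPKM in DKO_NP with 0 listed in DKO_ES. Sensor and signal genes had low levels. Ifih1, a sensor of double-stranded RNA, stood at 0.0550 and 1.36 FPKM, and Irf7 at 0.449 and 2.79 FPKM. H2-D1 and H2-K1, which present peptides, were both higher in DKO_NP. H2-D1 was at 10.6 and 39.7 FPKM, 5.15-fold higher (interval 4.65 to 5.72). H2-K1 was at 20.4 and 56.0 FPKM, 3.78-fold higher (interval 3.52 to 4.06). Not all members were high, since Bst2 was at 175 and 114 FPKM and Irf1 at 34.6 and 19.6 FPKM, both within 2-fold after scaling. Of 30 genes 26 passed, 6 in DKO_NP alone, and 12 were higher with 0 lower. The median over all 30 was 0.65, and in the wild type 0.06, with 2 higher and 4 lower.

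Chromatin genes were mixed. Phc1, a Polycomb subunit typical of ES cells, stood at 188 and 17.9 FPKM, 7.60-fold lower (interval 7.28 to 7.93), and Jarid2, which guides the Polycomb methyltransferase, at 126 and 44.0 FPKM, 2.08-fold lower (interval 2.03 to 2.13). Phc2, Bmi1 and Cbx8, subunits of the same kind of complex, were all higher in DKO_NP. Phc2 was at 14.5 and 38.6 FPKM, 3.68-fold higher (interval 3.48 to 3.88). Bmi1 was at 8.36 and 21.6 FPKM, 3.57-fold higher (interval 3.24 to 3.93). Cbx8 was at 0.836 and 3.80 FPKM, 6.26-fold higher (interval 4.64 to 8.74). Ezh2, the methyltransferase, was at 80.1 and 53.3 FPKM and Suz12 at 93.9 and 44.4 FPKM, both within 2-fold. Of 30 Polycomb genes 7 were higher and 5 lower, against 11.8% higher and 11.2% lower over all genes. The Polycomb median was 0.04, or -0.37 as deposited. Among linker and variant histones, H1f0, the linker histone of differentiated cells, stood at 15.0 and 53.3 FPKM, 4.91-fold higher (interval 4.46 to 5.43), Hist1h1e at 109.9 and 356 FPKM, 4.46-fold higher (interval 4.30 to 4.63), and H2afy at 58.2 and 145 FPKM, 3.43-fold higher (interval 3.34 to 3.53). Of 18 such histones 5 were higher and 0 lower.

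Several metabolic genes were lower. Of 21 genes of serine, glycine and folate metabolism 7 were lower and 0 higher, and the median was -0.60. Besides Tdh, these included Psat1, of serine synthesis, at 312 and 67.2 FPKM, 3.37-fold lower (interval 3.28 to 3.46), and Gldc, the glycine decarboxylase, at 206 and 50.6 FPKM, 2.95-fold lower (interval 2.87 to 3.03). Of 22 glycolytic genes 5 were lower and 0 higher, with a median of -0.39, among them Hk2 at 129 and 32.3 FPKM, 2.89-fold lower (interval 2.79 to 2.99), and Pfkp at 106 and 11.9 FPKM, 6.43-fold lower (interval 6.22 to 6.65). The glucose transporter Slc2a1 was at 361 and 454 FPKM. Cell cycle genes differed little, with 36 of 39 within 2-fold and a median of -0.25. Ccnd2, the D-type cyclin of neural progenitors, stood at 13.8 and 74.2 FPKM, 7.44-fold higher (interval 7.10 to 7.80), Ccne1 at 164 and 50.0 FPKM, 2.38-fold lower (interval 2.28 to 2.48), and Mki67 at 79.0 and 80.3 FPKM. Of 20 p53 pathway genes 1 was higher and 1 lower, against 11.8% and 11.2% over all genes. Trp53 was at 119 and 55.4 FPKM and its target Cdkn1a at 20.9 and 13.8 FPKM. Of 58 clustered protocadherin genes, which give neurons their surface identity, 37 did not pass, 5 were higher and 1 lower, with a median over all of 0.28.

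The wild-type differentiation, scaled and counted in the same way, had 2287 genes higher (16.2% of 14086) and 1592 lower (11.3%). Of the 1656 genes higher in the knockout differentiation, 1071 were also higher in the wild type, which is 64.7% of the knockout list and 46.8% of the wild-type list, and 13 were lower there. Of the 1570 genes lower in the knockout, 920 were also lower in the wild type, which is 58.6% and 57.8% of the lists, and 40 were higher there. No library is shared by the 2 differentiations, and with 1 library a group the difference between them was not tested.

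**Figure D5:**
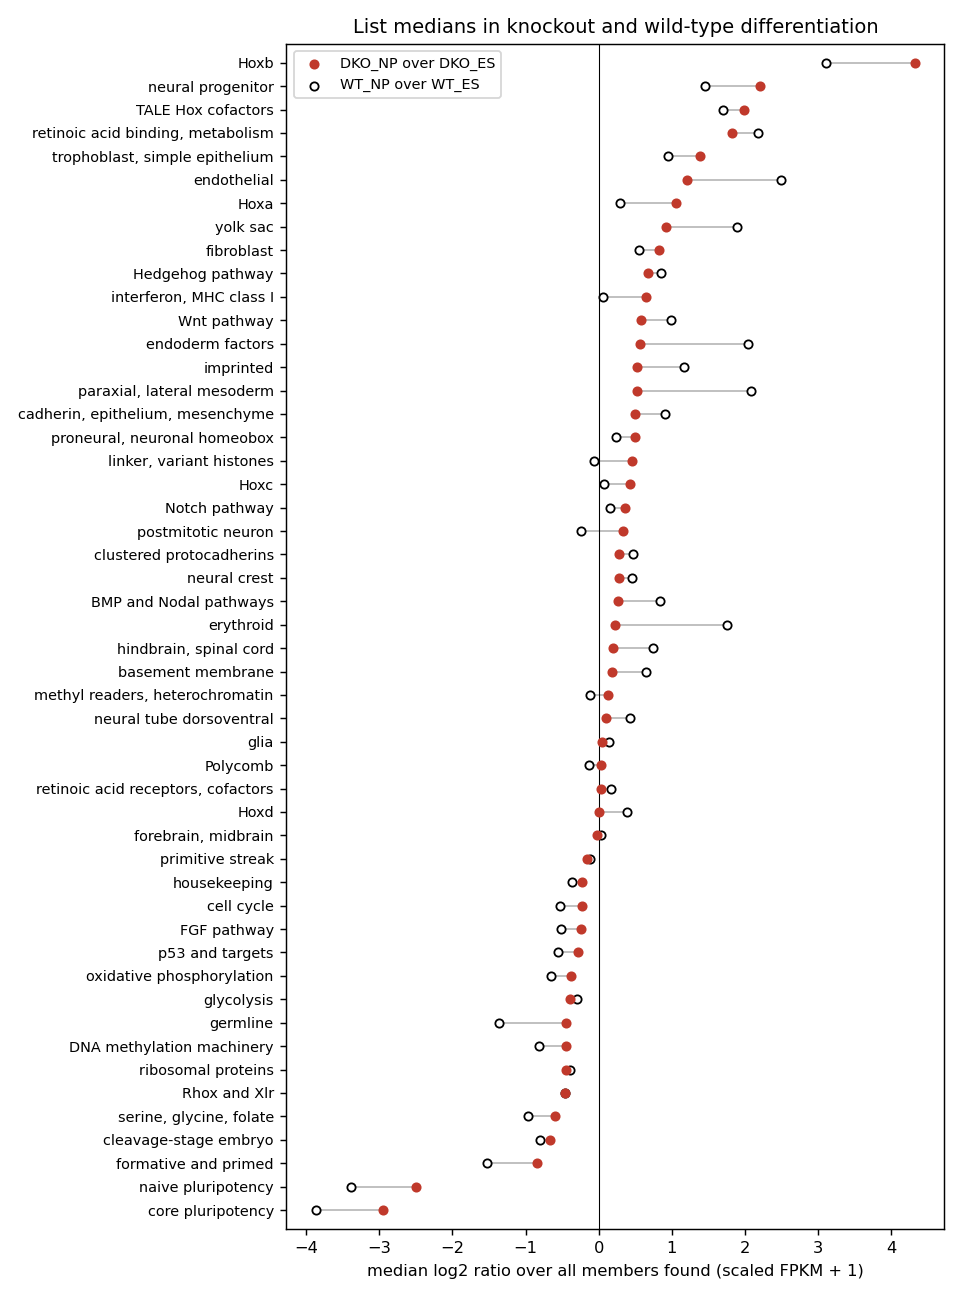
Median log2 ratio over all members found of each gene list in the knockout (red) and wild-type (open) differentiation. The red point lies right of the open point for interferon, germline and neural progenitor genes and left of it for endothelial, erythroid, mesoderm and endoderm genes.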

How the data were processed

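The submitters sequenced 1 library for each of 4 groups and deposited 1 table of FPKM per gene. The rRNA was removed from 5 µg of RNA per sample before TruSeq libraries were built with 15 PCR cycles and read from a single end for 50 cycles, per the labels' protocols. The authors' values are FPKM, which count fragments per transcript length and mapped reads, with Bowtie, TopHat and build mm9 named, per the submitters' processing notes. The program that computed FPKM, all versions, the annotation and any use of strand were not given in the sources used here, so overlapping and antisense genes cannot be told apart, and genes with near-identical copies (ribosomal proteins, globins, Rhox, Xlr, Zscan4) are uncertain. An FPKM of 0 can be a failed estimate. Rows with no gene name (18) were left out.

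Each column was divided by its median ratio to the 4-column geometric mean over 11334 genes at 1 FPKM or more in all columns, and log2 ratios had 1 FPKM added. Approximate reads came from FPKM, RefSeq exon lengths (found for 98.0% of genes) and a depth read from the steps between values up to 0.2 FPKM. Of 1821 low genes, 65.2% gave a ratio of whole reads within 2%, so reads are approximate. Intervals of folds are exact (Clopper-Pearson, 95%). With 1 library a group no test was possible. Scripts ran in Python 3.11.15 with numpy 2.4.6, pandas 2.3.3, scipy 1.17.1 and matplotlib 3.10.9 and were tested on simulated data. Promoters are from RefSeq, GRCm38.p6, matched by symbol for 10897 of 14050 genes, and no coordinate was carried between builds.

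The genes and the 50 lists were chosen with earlier results of these data known, and the pathway lists are from general knowledge. Lsh and Zac1, other names of Hells and Plagl1, were dropped so that no gene counted more than once, 6 members were found under another symbol, and Ahsp and Rhox5 were not matched. Named were Dnmt3a, Dnmt3b, anchor members of each list, the 3 highest and 3 lowest members past 2-fold at 5 FPKM or more, and the 12 highest and 12 lowest genes of the table, small RNAs and unnamed models left out, and the 10 genes of the highest FPKM in each library where a result turned on them. Chosen after their values were seen were Aqp4, Blvrb, Bmpr1a, Cbx8, Dcn, Dmrt1, Etv5, Fgfr4, Fzd8, Gbx2, Gli3, H2-D1, H2-K1, Hormad1, Hoxa6, Hoxa7, Hoxb8, Hoxb13, Hoxc13, Hoxd13, Ifih1, Irf1, Krt19, Lin28b, Lum, Nhlh2, Nkx2-2, Pax7, Pbx2, Phlda2, Ppbp, Psat1, Rax, Rhox1, Rxrb, Sall4, Sox3, Stat3, Stra6, Suz12, Tet2, Trim71 and Wnt3a. Dlx3, Emx2, En2, Gata2, Hesx1, Lhx1, Lhx2 and Tfap2c were also chosen after their values were seen. The alternatives were other scalings, pseudocounts, filters and a stricter fold. Some members of the lists enter the counts and medians but are not reported here by name.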

Additional observations from a re-analysis of the deposited data

Results flagged for a closer look

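For 7 named genes the log2 ratio of progenitors over ES cells had opposite signs in the knockout and in the wild type, each past 2-fold. With 1 library a group this difference was not tested. Among germline genes, the ratio of Dazl was 1.74 in the knockout and -1.93 in the wild type, that of Sohlh2 1.74 and -2.31, and that of Dmrt1 1.10 and -1.34. The imprinted RNA Meg3 had -1.49 in the knockout and 1.72 in the wild type, and its 118 FPKM in WT_ES already lay above the 7.16 FPKM of DKO_ES. Etv2, a factor of blood and endothelial precursors, had -1.58 and 1.44, with 5.4, 0.705, 1.43 and 3.12 FPKM in DKO_ES, DKO_NP, WT_ES and WT_NP. Hnf4a, a factor of visceral endoderm, had -1.04 and 1.27, at no more than 2.08 FPKM in any library. Spink3, a secreted protease inhibitor, had -1.77 and 1.64, with 42.4, 8.35, 17.8 and 29.6 FPKM in the same order.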

How the results depend on the processing

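As deposited, without scaling, 1102 genes were higher and 3067 lower, and 6 lists had a median of -1 or less in place of 2. A pseudocount of 5 FPKM gave 675 higher, 806 lower and 7 lists at 1 or more in place of 19. A filter at 5 FPKM gave 1097 higher, 12 lists at 1 or more and 5 at -1 or less, and no filter gave 7 lists at 1 or more. At 4-fold, 437 genes were higher and 377 lower. The median of the endoderm factors was -0.81 with the filter at 5 FPKM, that of forebrain and midbrain genes -0.027 with no filter, and that of erythroid genes -0.25 over genes of 1 kb or more of exon, an alternative chosen after seeing the data. In these the members differ by construction. Over the members that passed at 1 FPKM, the medians of the endoderm, forebrain and midbrain, and erythroid lists were each 1 or more. Their signs were thus reversed in these alternatives. As deposited, the medians of retinoic acid receptors, Notch, methyl readers, Polycomb and basement membrane changed sign. The depth was known only roughly, and values of a few reads, such as Fgf17 in DKO_NP, are not precise. No paired analysis was possible because each group had 1 library, and for the same reason no library could be left out. Response groups at 4-fold were not run for promoter letters, because 77.6% of the measured genes had a promoter, under the 80% set for a check over gene sets.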
